A study of Mus musculus with 20 samples.

Results

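Genes of sarcoplasmic reticulum calcium cycling were taken as 10 named genes, *Atp2a1*, *Atp2a2*, *Atp2a3*, *Pln*, *Ryr2*, *Casq1*, *Casq2*, *Slc8a1*, *Hrc* and *Trdn*, and every array probe annotated to any of these genes was used. They came to 22 of 45281 probes and to 10 of the 19057 genes that the probes name. A group mean above 1.5 times the array median, which is an intensity of 80.8, was reached by 12 of these probes from 8 genes, and by 29.9% of all probes. The other probes lay near the median of 53.9, among them the only probes of *Casq1* and *Trdn*, so that the arrays gave no usable level for these 2 genes.

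Ventricular RNA of male mice was hybridised to Illumina bead arrays, with 1 array per mouse, from 6 TAC DKO, 6 TAC CTL, 4 sham DKO and 4 sham CTL mice. DKO mice were homozygous for floxed *Dnmt3a* and *Dnmt3b*, the de novo DNA methyltransferases, and carried a Cre recombinase driven by the promoter of the atrial myosin light chain gene *Myl7*, which deletes the catalytic exons in cardiomyocytes. CTL mice had the same floxed alleles without Cre, so that presence of Cre and loss of the enzymes cannot be told apart. Transverse aortic constriction (TAC), which puts the left ventricle under pressure overload, or a sham operation was done at an age of 10 to 12 weeks, and the mice were killed 4 weeks later, at 14 to 16 weeks. The RNA is of unsorted left ventricular tissue, in which other cell types keep both methyltransferases and in which fewer cells of a type and less RNA per cell cannot be told apart. The study found the deletion in most, but not all, sorted cardiomyocyte nuclei.

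All intensities below are those after quantile normalization over the 20 arrays. In the deposited values the 8 sham and the 12 TAC arrays had been normalized as separate sets, with a TAC median 0.30 above the sham median on the log2 scale, so that an effect of TAC and a difference between the sets cannot be told apart. Arrays of the same group correlated at 0.980 to 0.994. The 9 measured cardiomyocyte markers were all bright. The probes of *Dnmt3a* averaged 40.7 to 50.6 and those of *Dnmt3b* 46.3 to 112 in the groups, with no genotype difference (adjusted p of 0.751 or more, limma), but where these probes lie relative to the deleted exons is not known, so they do not check the genotype.

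In the heart muscle cell, calcium is released from the sarcoplasmic reticulum through the ryanodine receptor RYR2 to start contraction and is pumped back by the calcium ATPase SERCA2a, encoded by *Atp2a2*. Phospholamban, encoded by *Pln*, inhibits the pump until it is phosphorylated. Calsequestrin 2 (*Casq2*) buffers calcium in the store, and triadin (*Trdn*) and the histidine rich calcium binding protein (*Hrc*) link buffer and channel, while the sodium calcium exchanger NCX1 (*Slc8a1*) carries calcium out of the cell. *Atp2a1* and *Casq1* encode the pump and the calsequestrin typical of fast skeletal muscle, and *Atp2a3* encodes SERCA3, a pump known from platelets, leukocytes and endothelium. Less SERCA2a relative to phospholamban or to the exchanger is a textbook feature of failing myocardium.

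Since the enzymes removed here methylate cytosine before guanine, the bases upstream of 3 members on which the results turn are shown, *Atp2a1* for the genotype comparison and *Pln* and *Ryr2* for TAC. The sequences are RefSeq promoters of GRCm38.p6, written 5′ to 3′ on the strand of the gene. They end just before its first annotated base, and capitals mark each CG. They lie at chr7:126463104-126463323 on the minus strand, with 220 bases and 2 CG, at chr10:53337436-53337685 on the plus strand, with 250 bases and 1 CG, and at chr13:12106946-12107195 on the minus strand, with 250 bases and 14 CG.
Atp2a1: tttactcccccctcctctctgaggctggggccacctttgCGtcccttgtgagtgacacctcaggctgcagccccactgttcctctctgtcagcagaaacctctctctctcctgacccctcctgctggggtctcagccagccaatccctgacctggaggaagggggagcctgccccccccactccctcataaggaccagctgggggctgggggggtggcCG
Pln: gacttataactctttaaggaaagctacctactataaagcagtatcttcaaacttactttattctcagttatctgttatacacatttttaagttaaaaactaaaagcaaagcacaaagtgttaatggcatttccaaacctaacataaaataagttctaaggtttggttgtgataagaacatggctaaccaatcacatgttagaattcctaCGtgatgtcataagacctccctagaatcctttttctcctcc
Ryr2: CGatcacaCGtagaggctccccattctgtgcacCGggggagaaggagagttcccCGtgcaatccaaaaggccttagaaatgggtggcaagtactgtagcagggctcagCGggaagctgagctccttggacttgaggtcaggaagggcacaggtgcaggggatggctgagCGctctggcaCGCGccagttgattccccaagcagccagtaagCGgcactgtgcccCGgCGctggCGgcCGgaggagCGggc

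Promoter windows from 250 bases before to 50 after the start were at hand for 8 members, and the windows of all 32851 promoters held a median of 7 CG, with quartiles of 3 and 20. *Atp2a3* and *Ryr2* were the CG rich members with 25 and 18 CG. *Slc8a1* had 9, *Casq2* 6, *Atp2a1* and *Casq1* 4 each, *Hrc* 3 and *Pln* 1, and 94.6% of all promoters held at least as many as *Pln*. The letters TATAAA, read on both strands, occurred in 1 of 8 members, *Pln*, and in 13.6% of all windows. CANNTG was found in 7 of 8 members and in 72.3% of all windows, and GATAA in 4 of 8 members and in 25.4%. No methylation was measured at these sites on the arrays.

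Between the genotypes no member probe passed in either condition. At an adjusted p under 0.05 from limma, 0 of 22 probes were higher and 0 lower in TAC DKO than in TAC CTL hearts, where 0.254% of all probes were higher and 0.0618% lower, and 0 were higher and 0 lower in sham DKO than in sham CTL hearts, where 0.0994% of all probes were higher and 0.0199% lower. With a fold over 1.5 also asked, the shares of all probes were 0.128% and 0.0155% after TAC and 0.0883% and 0.0133% in sham hearts, with 0 members. For the difference between the TAC effects of the genotypes 0 members passed, against 0% of all probes higher and 0.00221% lower, with or without the fold. At an unadjusted p under 0.05 there were 2 of 22 probes after TAC, of *Atp2a1* and *Atp2a3*, and 1 in sham hearts, again of *Atp2a1*. Of all 45281 probes, 4073 after TAC and 2514 in sham hearts lay under that p, a share near that of the members. After TAC, in DKO hearts 3 probes were higher after TAC (of *Atp2a3* and *Slc8a1*) and 4 lower (of *Pln*, *Ryr2* and *Atp2a2*), which is 13.6% and 18.2% of the member probes, against 15.4% and 12.7% of all probes. In CTL hearts 4 were higher (*Atp2a3* and *Slc8a1*) and 3 lower (*Pln*, *Ryr2* and *Atp2a2*), against 11.7% and 10.2% of all probes. These shares lie near those of all probes, so the counts are a description of the members only. When a fold change over 1.5 was also asked for, 1 probe was higher and 3 lower in DKO hearts, against 2.46% and 4.27% of all probes, and 0 were higher and 3 lower in CTL hearts, against 1.76% and 3.4%. The median change over the 22 probes was -0.04 in DKO and 0.01 in CTL hearts on the log2 scale, against 0.02 and 0.01 over all probes.

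These counts depended on how the arrays were scaled. With the median of each array subtracted from the deposited values, 1 member probe was higher and 6 lower after TAC in DKO hearts, and 0 were higher and 6 lower in CTL hearts, where 8.22% of all probes were higher and 22.2% lower in DKO and 5.47% and 21.4% in CTL hearts. With the deposited values as they stand, 11 were higher and 3 lower in DKO hearts, and 12 were higher and 4 lower in CTL hearts, where 68.9% of all probes were higher and 10.8% lower in DKO and 68.5% and 10.1% in CTL hearts. A direction is therefore given below together with the scaling under which it changed. Where arrays are said below not to overlap, the share of all probes with such a gap was not counted, so this describes the probe only.

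Phospholamban fell most. *Pln* read 1619 in the lowest, 1721 in the median and 2876 in the highest TAC DKO array and 1340, 2591 and 3086 in the TAC CTL arrays, against 7601, 7162, 7309 and 8110 in the sham DKO arrays and 6822, 6760, 6985 and 7888 in the sham CTL arrays. No TAC array reached the level of any sham array. The group means were 2029 ± 556 in TAC DKO (SD, n = 6), 2371 ± 701 in TAC CTL (n = 6), 7545 ± 418 in sham DKO (n = 4) and 7114 ± 525 in sham CTL hearts (n = 4). The log2 fold change of *Pln* after TAC was -1.93 in DKO hearts (SE 0.19, adjusted p = 6.76e-08, a 3.82-fold fall) and -1.64 in CTL hearts (SE 0.19, adjusted p = 9.81e-07, a 3.13-fold fall). The fall was present under every scaling, between -2.40 and -1.82 in DKO and between -2.12 and -1.55 in CTL hearts over all alternatives other than leaving out 1 array. The 2 falls did not differ beyond their error (interaction -0.29, 95% interval -0.85 to 0.27, adjusted p = 0.946), and the genotypes differed by -0.20 after TAC (interval -0.56 to 0.15) and by 0.09 in sham hearts (interval -0.35 to 0.52).

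**Figure D1:**
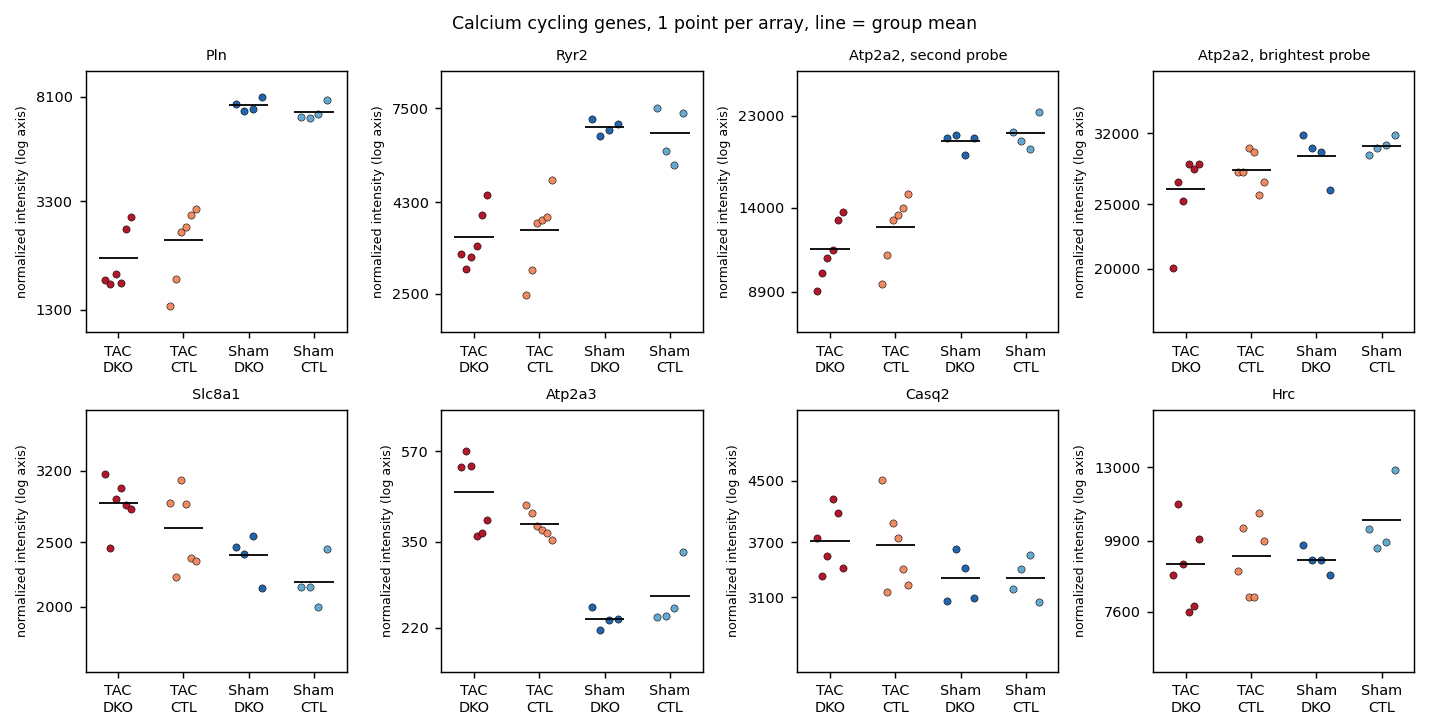
Normalized intensity (log axes) of 8 probes of 7 calcium cycling genes, with 1 point per array and a line at the group mean, for TAC DKO, TAC CTL, sham DKO and sham CTL hearts from left to right. *Pln*, *Ryr2* and the second *Atp2a2* probe lie lower and *Atp2a3* higher in all TAC arrays than in the sham arrays of the same genotype, while the brightest *Atp2a2* probe, *Slc8a1*, *Casq2* and *Hrc* overlap.

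The pump itself was read by 4 probes that did not move alike. The brightest *Atp2a2* probe averaged 89.4% of the highest value on the scale, with 26359 ± 3344 in TAC DKO, 28175 ± 1724 in TAC CTL, 29595 ± 2319.9 in sham DKO and 30615 ± 896 in sham CTL hearts. Its TAC differences of -0.17 in DKO (adjusted p = 0.128) and -0.12 in CTL hearts (adjusted p = 0.339) did not pass, but both passed with the array median subtracted (-0.41 and -0.34). The second probe, at 48.3% of the highest value, read 8928, 10911 and 13712 in the lowest, median and highest TAC DKO array and 9253, 13270 and 15056 in the TAC CTL arrays, against 20357, 20730, 18630 and 20357 in the sham DKO and 21065, 20078, 19208 and 23464 in the sham CTL arrays. All TAC arrays lay below all sham arrays. The log2 fold change of this probe was -0.85 in DKO (SE 0.12, adjusted p = 8.65e-06, a 1.80-fold fall) and -0.75 in CTL hearts (SE 0.12, adjusted p = 5.84e-05, a 1.68-fold fall), and it passed under every scaling. The next probe, annotated through a cDNA clone, was at 1999.9 ± 149 in TAC DKO, 1845 ± 177 in TAC CTL, 1743 ± 127 in sham DKO and 1526 ± 441 in sham CTL hearts (adjusted p = 0.314 in DKO and 0.0972 in CTL hearts), and the last was dim. Genotype differences of the 3 bright probes lay between -0.16 and 0.25, with adjusted p of 0.691 or more.

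The release channel followed phospholamban. The bright *Ryr2* probe read 2892, 3239 and 4500 in the lowest, median and highest TAC DKO array and 2489, 3833 and 4909 in the TAC CTL arrays, against 7062, 6375, 6612 and 6841 in the sham DKO and 7504, 5818, 5355 and 7309 in the sham CTL arrays. Again no TAC array overlapped a sham array. The means were 3495 ± 620 in TAC DKO and 3648 ± 856 in TAC CTL hearts, against 6722 ± 296 in sham DKO and 6497 ± 1070.5 in sham CTL hearts. On the log2 scale *Ryr2* changed by -0.96 in DKO (SE 0.15, adjusted p = 2.69e-05, a 1.95-fold fall) and by -0.85 in CTL hearts (SE 0.15, adjusted p = 0.000149, a 1.81-fold fall), and it passed under every scaling. A second *Ryr2* probe, at 102 to 128 in the group means, did not pass (0.14 in DKO and 0.28 in CTL hearts, adjusted p = 0.512 and 0.182), and 3 more were dim. Of the dim probes 1 was lower after TAC in DKO hearts at 44.1 ± 3.19, against 50.6 ± 3.49 in sham DKO hearts (-0.20, adjusted p = 0.0292), a difference that turned positive without the second normalization. The genotypes differed in the bright probe by -0.04 after TAC (interval -0.32 to 0.23) and by 0.06 in sham hearts (interval -0.27 to 0.40).

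*Pln*, *Ryr2* and the second *Atp2a2* probe also varied together from array to array. After centring the TAC and the sham arrays separately, r over the 20 arrays was 0.91 between *Pln* and the *Atp2a2* probe, 0.88 between *Pln* and *Ryr2* and 0.86 between *Ryr2* and the *Atp2a2* probe, whereas *Pln* and the brightest *Atp2a2* probe gave 0.23 and *Pln* and *Casq2* -0.36. These values describe arrays that share their normalization. In TAC CTL hearts these probes all rose with replicate number, *Pln* from 1340 on the first to 3086 on the last array. In TAC DKO hearts the *Atp2a2* probe did so, from 8928 to 13712, while *Pln* and *Ryr2* did not rise at each step. What the replicate order stands for is not given, and its part in these correlations was not tested. Among all bright probes with 1 gene, those most like *Pln* were of *Mbnl2* (r = 0.948), the mitochondrial transcript *COX2* (0.946) and *Chmp3* (0.945). Those most like *Ryr2* were of the mitochondrial transcript *ND1* (0.902), *Pln* (0.885) and *Cpt2* (0.882). *COX2* itself was -1.71 in DKO and -1.47 in CTL hearts after TAC, and *ND1* -1.18 and -1.11. The brightest *Atp2a2* probe was most like probes of *Pcid2* (0.863), *Irak3* (0.805) and *Tecpr2* (0.791), *Slc8a1* most like *Nptn* (0.792), *Yap1* (0.769) and *Des* (0.750), and the dim *Trdn* probe most like *Spata6* (0.819), *Ilvbl* (0.791) and *Akap9* (0.787).

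Some other cardiomyocyte genes moved in the same comparison. Of the 9 measured cardiomyocyte markers, 2 were higher and 4 lower after TAC in DKO hearts, against 21.3% and 14% of all genes by their brightest probes. In CTL hearts 1 was higher and 3 lower, against 16.4% and 11.7%. The median change of the list was -0.015 in DKO and 0.008 in CTL hearts, and the list was not counted under the other scalings. *Tnni3*, cardiac troponin I, was -1.47 in DKO and -1.37 in CTL hearts, and *Mb*, myoglobin, -0.63 and -0.53, whereas *Ttn*, titin, was 0.88 and 0.51. The summed intensity of the list ranged from 157169 to 165936 in TAC DKO and from 154750 to 177249 in TAC CTL hearts, against 169954 to 174761 in sham DKO and 169718 to 179136 in sham CTL hearts. The part of such shifts in the falls of *Pln*, *Ryr2* and *Atp2a2* was not tested.

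Store buffering and the exchanger showed small or no differences. *Casq2* was at 3717 ± 369 in TAC DKO, 3662 ± 517 in TAC CTL, 3296 ± 266 in sham DKO and 3294 ± 219 in sham CTL hearts, with TAC differences of 0.17 in DKO (adjusted p = 0.178) and 0.14 in CTL hearts (adjusted p = 0.299) that turned to -0.28 and -0.31 and passed with the array median subtracted. *Hrc* was at 9076 ± 1411 in TAC DKO, 9357 ± 1244 in TAC CTL, 9224 ± 423 in sham DKO and 10668 ± 1497 in sham CTL hearts, with -0.04 (adjusted p = 0.844) in DKO and -0.19 (adjusted p = 0.239) in CTL hearts. It passed as lower with the median subtracted (-0.46 and -0.61), and in CTL hearts also on the deposited scale (-0.30). *Slc8a1* read 2453, 2872 and 3160 in the lowest, median and highest TAC DKO array and 2218, 2611 and 3097 in the TAC CTL arrays, against 2461, 2401, 2556 and 2133 in the sham DKO and 2142, 2142, 1996 and 2444 in the sham CTL arrays. The TAC and sham arrays overlapped in both genotypes. It was higher by 0.26 in DKO (SE 0.09, adjusted p = 0.0343) and by 0.26 in CTL hearts (SE 0.09, adjusted p = 0.0425), a 1.20-fold difference that was -0.21 in both genotypes with the median subtracted. On the deposited scale it was 0.091 in DKO (adjusted p = 0.358) and 0.088 in CTL hearts (adjusted p = 0.373). It did not pass in 2 of 8 other settings in DKO and 5 of 8 in CTL hearts, and in 6 of 20 omissions of 1 array in DKO and 7 of 20 in CTL hearts. A dim *Slc8a1* probe was higher in CTL hearts at 68.9 ± 3.54 after TAC, against 57.0 ± 5.92 in sham hearts (0.28, adjusted p = 0.0109).

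**Figure D2:**
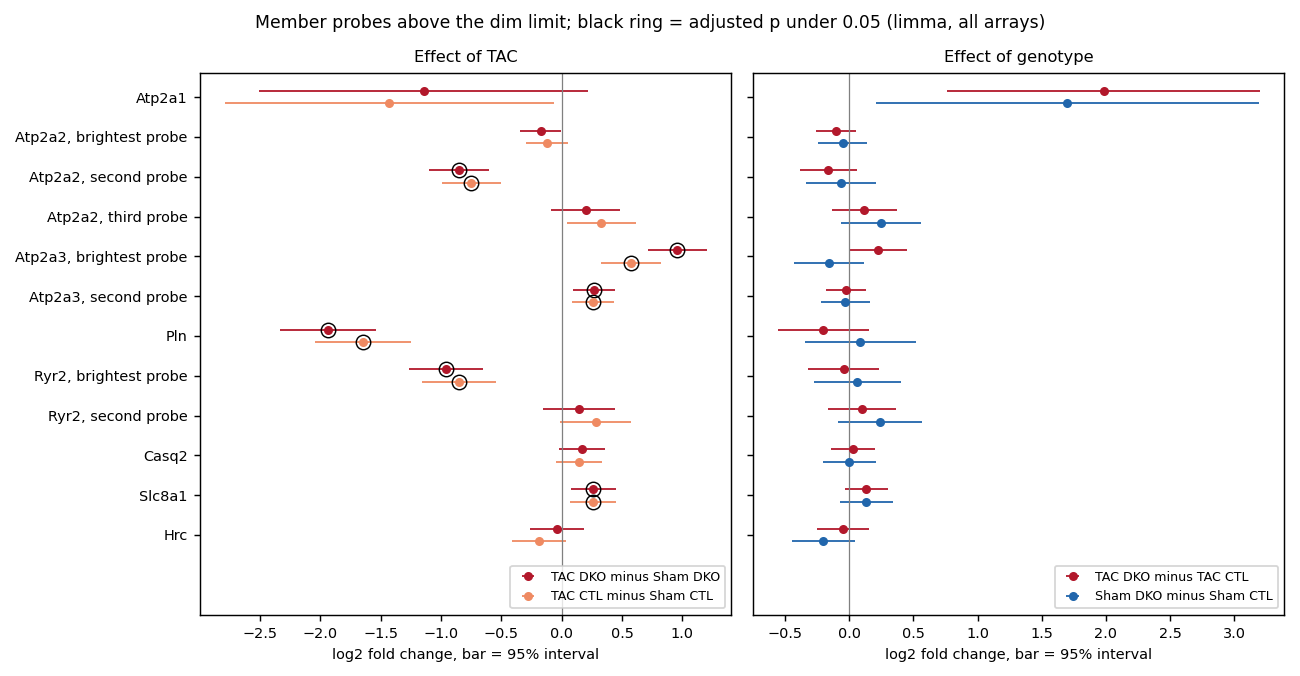
Log2 fold changes with 95% intervals from limma for the 12 bright member probes, for TAC against sham in DKO and CTL hearts on the left and for DKO against CTL in TAC and sham hearts on the right. Black rings mark an adjusted p under 0.05, which 6 probes reached for TAC in each genotype and 0 for genotype, and the *Atp2a1* intervals are the widest.

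SERCA3 rose after TAC. *Atp2a3* read 360, 459 and 569 in the lowest, median and highest TAC DKO array and 352, 376 and 426 in the TAC CTL arrays, against 246, 217, 230.1 and 231 in the sham DKO and 234, 234, 245 and 331 in the sham CTL arrays. All TAC arrays lay above all sham arrays. The means were 457 ± 93.0 in TAC DKO, 384 ± 27.6 in TAC CTL, 231 ± 11.9 in sham DKO and 261 ± 46.9 in sham CTL hearts, which is a rise of 0.96 (SE 0.12, adjusted p = 1.67e-06, 1.94-fold) in DKO and of 0.57 (SE 0.12, adjusted p = 0.00101, 1.49-fold) in CTL hearts. With the array median subtracted the rise was 0.49 in DKO hearts (adjusted p = 0.00298), and in CTL hearts it was 0.10 and did not pass (adjusted p = 0.618). The difference between the 2 rises was 0.39 (95% interval 0.04 to 0.74, unadjusted p = 0.0315, adjusted p = 0.939). A second *Atp2a3* probe was at 120 ± 11.7 in TAC DKO, 122 ± 13.1 in TAC CTL, 99.1 ± 7.85 in sham DKO and 101 ± 7.11 in sham CTL hearts (0.27 and 0.26, adjusted p = 0.0188 and 0.0275), and turned to -0.05 and -0.06 with the median subtracted.

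Of the cell types in which SERCA3 is known, the leukocyte markers (6 of 8 measured) had summed intensities of 1921 to 2740 in TAC DKO and 1785 to 3313 in TAC CTL hearts, against 2560 to 2957 in sham DKO and 2017 to 2897 in sham CTL hearts. The platelet markers (4 of 5 measured) summed to 362 to 498 in TAC DKO and 336 to 473 in TAC CTL hearts, against 546 to 1142 in sham DKO and 553 to 672 in sham CTL hearts. The 8 endothelial markers summed to 6912 to 8779 in TAC DKO and 6687 to 8283 in TAC CTL hearts, against 6479 to 8307 in sham DKO and 8284 to 9747 in sham CTL hearts. The platelet sums were thus lower in all TAC arrays and the other sums overlapped. For endothelium the TAC CTL sums lay barely below those of sham CTL hearts (8283.02 against 8283.8). As a mean log2 deviation the platelet list overlapped, at -0.32 to 0.13 in TAC DKO and -0.42 to -0.0004 in TAC CTL hearts. The sham values were -0.04 to 1.02 in DKO and -0.07 to 0.07 in CTL hearts. The endothelial list overlapped too, while the leukocyte list was lower in all TAC DKO (-0.24 to 0.01) than in all sham DKO arrays (0.16 to 0.25).

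Ratios of members on the same array, in which a factor common to the array cancels, were compared by exact two-sided permutation tests of 8 differences. The *Atp2a2* to *Pln* ratio, taken with the brightest probes, was 3.73 ± 0.33 in TAC DKO and 3.63 ± 0.50 in TAC CTL hearts, against 1.97 ± 0.18 in sham DKO and 2.11 ± 0.07 in sham CTL hearts, all on the log2 scale. The brightest *Atp2a2* probe lies near the top of the scale, so the second probe is given as well. The ratio was higher after TAC by 1.76 in DKO and by 1.52 in CTL hearts (exact p = 0.00952, the smallest that 6 against 4 arrays allow, adjusted p = 0.0190 each). The second *Atp2a2* probe gave 1.09 and 0.90 with the same p. Ratios in TAC DKO and TAC CTL hearts differed by 0.10 (exact p = 0.690, adjusted p = 0.690), and those in sham DKO and sham CTL hearts by -0.14 (exact p = 0.143, adjusted p = 0.163).

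The *Slc8a1* to *Atp2a2* ratio was -3.20 ± 0.28 in TAC DKO and -3.43 ± 0.14 in TAC CTL hearts, against -3.63 ± 0.06 in sham DKO and -3.81 ± 0.10 in sham CTL hearts. After TAC it was higher by 0.44 in DKO and by 0.38 in CTL hearts (adjusted p = 0.0190 each, exact permutation). On the deposited scale the differences were 0.19 and 0.13 and did not pass, and with the second *Atp2a2* probe they were 1.11 and 1.01. Sham DKO hearts lay above sham CTL hearts by 0.18, in 4 of 4 arrays against 4 of 4 (exact p = 0.0286, the smallest possible, adjusted p = 0.0457). That difference did not pass with the second *Atp2a2* probe (0.19, exact p = 0.0571, adjusted p = 0.0762). An omission of 1 sham array leaves too few arrays for an exact p under 0.05, so the omissions could not pass. TAC DKO hearts exceeded TAC CTL hearts by 0.24 (exact p = 0.0758, adjusted p = 0.101).

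**Figure D3:**
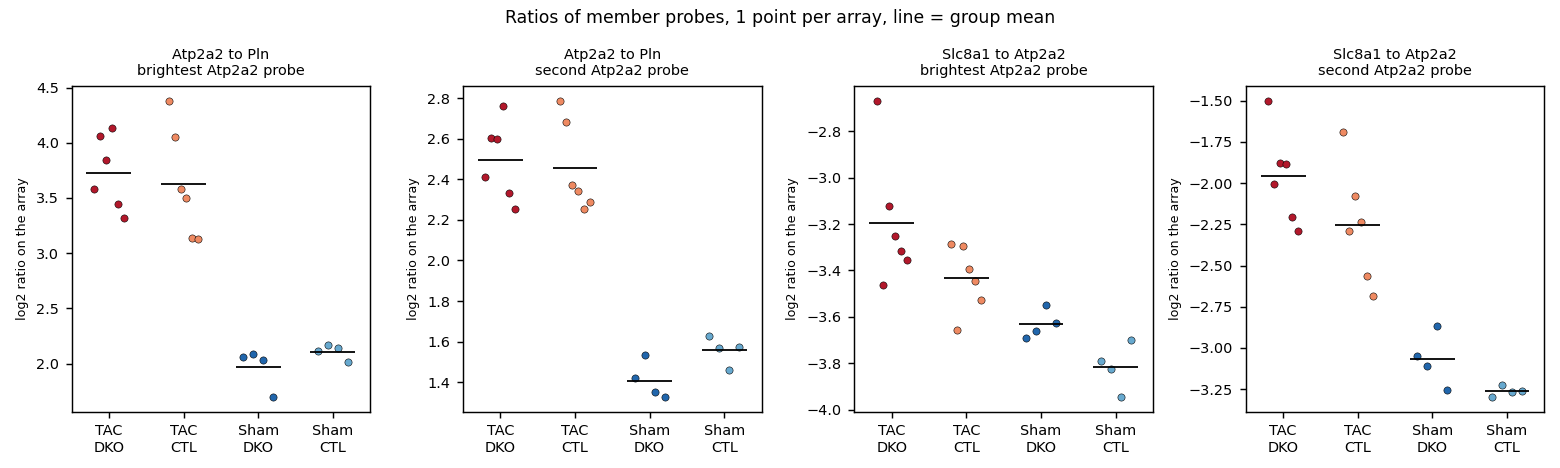
Log2 ratios of *Atp2a2* to *Pln* and of *Slc8a1* to *Atp2a2* on each array (points) with group means (lines), for the brightest and the second *Atp2a2* probe, with TAC DKO, TAC CTL, sham DKO and sham CTL hearts from left to right. The *Atp2a2* to *Pln* ratio lies between 3.13 and 4.38 in the TAC arrays and between 1.70 and 2.17 in the sham arrays with the brightest probe.

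The skeletal muscle pump had the largest genotype differences of the members, without passing. *Atp2a1* read 169, 771, 216, 182, 119 and 319 in the 6 TAC DKO arrays and 56.1, 61.8 and 66.4 in the lowest, median and highest TAC CTL array. In sham hearts it read 392, 722, 1067 and 267 in the DKO arrays and 70.7, 1890, 69.9 and 77.4 in the CTL arrays. All TAC DKO arrays lay above all TAC CTL arrays, and all sham DKO arrays lay above 3 of the 4 sham CTL arrays, while sham CTL replicate 2 was the highest of all 20. In the fit of all arrays the difference was 1.98 after TAC (SE 0.59, unadjusted p = 0.00273, adjusted p = 0.244) and 1.70 in sham hearts (SE 0.72, unadjusted p = 0.0276, adjusted p = 0.856), and neither passed. All TAC CTL arrays and 3 of the 4 sham CTL arrays lay under the limit of 80.8, and the probe counted as bright through the other groups, so these differences are set against a level that was not measured well.

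Sham CTL replicate 2 was also the array on which 9 of 11 fast skeletal muscle markers were at their highest. It read 1297 for *Pvalb*, parvalbumin, against 51.5 to 110.3 on the other sham CTL arrays, 508 for *Tnnc2*, fast troponin C, against 42.6 to 47.6, and 276 for *Myh4*, a fast myosin, against 40.2 to 49.1. On the DKO arrays *Pvalb* ranged from 47.6 to 56.5 in TAC DKO and from 51.2 to 62.8 in sham DKO hearts, *Tnnc2* from 46.1 to 55.6 and from 51.1 to 56.0, and *Myh4* from 41.5 to 49.2 and from 42.9 to 47.0. The sham DKO range of *Tnnc2* lay above that of the other sham CTL arrays. *Mybpc2*, a fast myosin binding protein, ranged from 267 to 551 in TAC DKO and from 290 to 417 in TAC CTL hearts, and from 124 to 383 in sham DKO hearts, against 129 to 178 on the other sham CTL arrays and 245 on replicate 2. The list level, a mean log2 deviation, was -0.14 to -0.05 in TAC DKO and -0.14 to 0.06 in TAC CTL hearts, against -0.15 to -0.01 in sham DKO and -0.25 to 1.86 in sham CTL hearts. The part of skeletal muscle RNA in the *Atp2a1* levels of DKO hearts was not tested.

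The omission of that array is singled out here after its values were seen. Without sham CTL replicate 2, *Atp2a1* was higher in DKO hearts by 1.98 after TAC (SE 0.33, adjusted p = 0.00412), where 0.232% of all probes were higher, and by 2.87 in sham hearts (SE 0.44, adjusted p = 0.00405), where 0.0751% were. With the CTL arrays set to the limit of 80.8, the DKO level was 2.98-fold that of CTL hearts after TAC and 6.59-fold in sham hearts without replicate 2. These folds of mean log2 values carry no interval. The remaining 3 sham CTL arrays averaged 72.7 ± 4.13, against 612 ± 359 in the 4 sham DKO arrays. A fit of the TAC arrays alone, which holds no sham array, gave 1.98 (SE 0.31, adjusted p = 0.00784) for TAC DKO, at 296 ± 242, against TAC CTL hearts, at 61.1 ± 4.14 and under the limit on all arrays. After TAC *Atp2a1* was lower in DKO hearts by 1.14 (adjusted p = 0.0234 without that array, 0.211 with it), and the difference between the 2 TAC effects was -0.89 without it (95% interval -2.03 to 0.24, adjusted p = 0.926).

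Some atrial markers were also higher in DKO hearts. The list was chosen with earlier results of these data known, so its counts and levels describe these markers only. Of 6 atrial markers 1 passed as higher in DKO than in CTL hearts after TAC, where 0.254% of all probes did, and 1 in sham hearts, where 0.0994% did. *Mybphl* ranged from 77.8 to 1207 in TAC DKO and from 51.3 to 78.3 in TAC CTL hearts, and from 147 to 1152 in sham DKO and from 58.1 to 62.9 in sham CTL hearts. *Myl4*, an atrial myosin light chain, ranged from 336 to 4917 in TAC DKO and from 176 to 894 in TAC CTL hearts, and from 191 to 243 in sham DKO and from 134 to 166 in sham CTL hearts. In sham hearts *Stard10* ranged from 408 to 520 in DKO and from 204 to 249.2 in CTL arrays. These 3 markers did not overlap between sham DKO and sham CTL arrays, and *Atp2a1* did not if replicate 2 is left aside. The share of all probes with such a gap was not counted. *Sln*, sarcolipin, ranged from 42.8 to 1147 in TAC DKO and from 41.1 to 90.9 in TAC CTL hearts, and *Myl7* from 44.1 to 168 in TAC DKO and from 44.3 to 76.8 in TAC CTL hearts. In sham hearts these overlapped, with *Sln* at 43.8 to 56.4 in DKO and 43.3 to 62.9 in CTL arrays, and *Myl7* at 41.3 to 50.7 and 38.2 to 47.4. *Nppa* ranged from 22438 to 29615 in TAC DKO and from 8606 to 31764 in TAC CTL hearts, and from 7281 to 17667 in sham DKO and from 2607 to 7888 in sham CTL hearts. The atrial list level, a mean log2 deviation, was -0.08 to 2.14 in TAC DKO and -0.66 to 0.31 in TAC CTL hearts. It was -0.29 to 0.46 in sham DKO and -0.86 to -0.72 in sham CTL hearts, higher in all sham DKO than in all sham CTL arrays. The summed intensities of the list overlapped in sham hearts, at 8113 to 18669 in DKO and 3195 to 8390.5 in CTL arrays. The part of atrial tissue in the *Atp2a1* difference was not tested. Sham CTL replicate 2 and the 2 TAC DKO arrays of the highest atrial level, replicates 2 and 3, were left out together after the values were seen. *Atp2a1* was then higher by 1.60 after TAC (limma, adjusted p = 0.0113) and by 2.87 in sham hearts (adjusted p = 0.000225). No sham DKO array was left out, so the sham difference of 2.87 is the same as without replicate 2 alone.

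**Figure D4:**
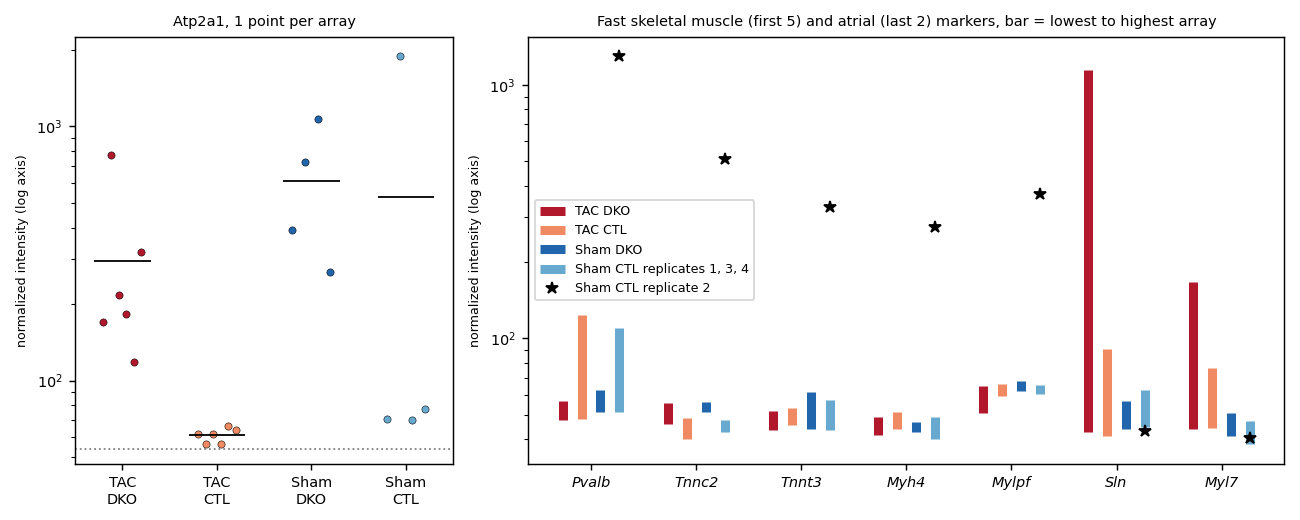
Left, normalized intensity (log axis) of *Atp2a1* with 1 point per array, a line at the group mean and a dotted line at the array median of 53.9. Right, lowest to highest array of 5 fast skeletal muscle and 2 atrial markers by group, with sham CTL replicate 2 as a star. The star lies above all bars for the 5 skeletal markers, whose DKO bars lie near the array median, and the same array is the highest *Atp2a1* point, at 1890.

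*Casq1*, the calsequestrin of the same fast muscle, was at 49.0 in TAC DKO, 47.2 in TAC CTL, 51.3 in sham DKO and 47.3 in sham CTL hearts on average. Its probe was dim on all arrays and read 50.5 on sham CTL replicate 2. *Trdn* lay at 47.3 to 48.5 in the group means. No difference passed for either gene.

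Partners of the members were counted from 6 gene lists, taking the brightest probe of each gene. With that choice 21.3% of all 19057 genes were higher and 14% lower after TAC in DKO hearts and 16.4% and 11.7% in CTL hearts. The shares were 8.02% and 28.5% in DKO and 4.75% and 28.9% in CTL hearts with the median subtracted, and 61.3% and 14.8% in DKO and 59.3% and 14.2% in CTL hearts on the deposited scale, and the list counts below are a description beside these. In the genotype comparisons 0 genes of any of these lists passed. After TAC the genes that bind or regulate the release channel were divided, with 5 of 14 higher and 4 lower in DKO hearts and 3 higher and 3 lower in CTL hearts. With the median subtracted 2 were higher and 7 lower in DKO and 1 higher and 6 lower in CTL hearts, and on the deposited scale 5 and 3 in DKO and 6 and 3 in CTL hearts. *Jph1*, a junctophilin that holds the junctional membranes together, was lower at 204 ± 56.0 in TAC DKO, against 429 ± 37.6 in sham DKO hearts, and at 257 ± 58.9 in TAC CTL, against 375 ± 31.9 in sham CTL hearts (-1.11 and -0.58, adjusted p = 1.56e-05 and 0.0124). *Calm2*, 1 of the calmodulin genes, was also lower (-1.01 and -0.82), and *Tmem38b*, a potassium channel of the reticulum, was higher (0.77 and 0.85), under every scaling. *S100a1* was higher by 0.45 in CTL hearts, which turned to -0.02 with the median subtracted, and the dim probe of *Ryr1* was higher by 0.37 in DKO hearts.

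Among 14 regulators of uptake, 2 were higher and 4 lower in DKO hearts and 3 higher and 1 lower in CTL hearts. With the median subtracted the counts were 0 and 9 in DKO and 1 and 8 in CTL hearts, and on the deposited scale 2 and 6 in DKO and 3 and 2 in CTL hearts. *Ppp1cc* and *Ppp1cb* encode catalytic subunits of protein phosphatase 1, which dephosphorylates phospholamban. *Ppp1cc* was at 91.8 ± 10.7 in TAC DKO, against 291 ± 16.1 in sham DKO hearts, and at 110 ± 18.5 in TAC CTL, against 281 ± 12.1 in sham CTL hearts (-1.67 and -1.38, adjusted p = 1.29e-10 and 2.37e-09). *Ppp1cb* was lower in DKO hearts (-1.01, adjusted p = 0.00490), as was the phosphatase inhibitor *Ppp1r1a* (-0.44, adjusted p = 0.0304). *Pde3a*, a phosphodiesterase of the cAMP pathway, was higher in CTL hearts (0.47, adjusted p = 0.000148). *Camk2d* (0.39) and *Ppp1ca* (0.34) in CTL hearts and *Akap7* (0.30) in DKO hearts were higher but turned to -0.08, -0.13 and -0.17 with the median subtracted.

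The calcium binding proteins of the lumen included 0 of 10 higher and 4 lower in DKO hearts and 0 higher and 5 lower in CTL hearts. The counts were 0 and 8 in DKO and 0 and 6 in CTL hearts with the median subtracted, and 2 and 5 in each genotype on the deposited scale. The chaperone *Hspa5* was at 65.8 ± 6.78 in TAC DKO, against 237 ± 55.2 in sham DKO hearts, and at 64.2 ± 6.34 in TAC CTL, against 197 ± 40.3 in sham CTL hearts (-1.83 and -1.60, adjusted p = 4.53e-10 and 4.48e-09). *Hsp90b1*, a chaperone of the same compartment, was -1.23 and -0.91, and sarcalumenin, *Srl*, a calcium binding protein of the muscle reticulum, was -0.83 and -0.54. *Calr*, calreticulin, was lower in CTL hearts (-0.55, adjusted p = 0.00832), and the dim probe of *Rcn2* was lower in DKO hearts (-0.22) but not without the second normalization (0.09).

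At the surface membrane 2 of 10 genes were higher and 2 lower in DKO hearts and 1 was higher and 2 lower in CTL hearts. These were 0 and 3 in DKO and 0 and 4 in CTL hearts with the median subtracted, and 4 and 2 in DKO and 3 and 2 in CTL hearts on the deposited scale. Phospholemman, *Fxyd1*, a regulator of the sodium pump, was at 150.5 ± 20.9 in TAC DKO, against 451 ± 99.1 in sham DKO hearts, and at 181 ± 22.4 in TAC CTL, against 453 ± 96.0 in sham CTL hearts (-1.57 and -1.31, adjusted p = 7.08e-09 and 1.56e-07). *Cacnb2*, a subunit of the L-type calcium channel, was lower (-0.62 and -0.71). *Atp1b1* of the sodium pump (0.49 and 0.59) and *Cacna2d1* (0.54 in DKO hearts) were higher and no longer passed with the median subtracted. Of 9 other store genes 2 were higher and 1 lower in DKO hearts and 1 was higher and 1 lower in CTL hearts, among them *Orai1*, the pore of store operated entry, at 0.80 and 0.55, *Itpr3* at 0.50 in DKO hearts and the Golgi pump *Atp2c1* at -0.58 and -0.54. The counts were 1 and 3 in DKO and 0 and 4 in CTL hearts with the median subtracted, where *Itpr3* and, in CTL hearts, *Orai1* did not pass, and 4 and 1 in DKO and 3 and 1 in CTL hearts on the deposited scale. Of 7 mitochondrial calcium genes 2 were higher and 1 lower in DKO hearts and 1 was higher and 2 lower in CTL hearts. They were 1 and 3 in DKO and 0 and 3 in CTL hearts with the median subtracted, and 4 and 2 in each genotype on the deposited scale. *Micu2*, a regulator of the uniporter, was -0.71 and -0.45. *Smdt1*, a further subunit, was 0.52 and 0.42, which did not pass with the median subtracted (0.06 and -0.05), and *Slc8b1*, the mitochondrial exchanger, was -0.26 in CTL hearts and the dim *Mcur1* 0.26 in DKO hearts.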

How the data were processed

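Total RNA of left ventricular tissue was labelled and hybridised to Illumina BeadArrays, and GenomeStudio V2010.3 is named in the submitters' processing notes. The deposited values of 45281 probes are intensities on a linear scale. How the authors corrected background and normalized them is not stated in the sources at hand. Sorted values were equal to within 0.2% for at least 97.6% of the probes among the sham and 99.9% among the TAC arrays, against at most 0.413% between the sets, which is what separate quantile normalization leaves. Groups came from the sample titles. The precision is limited by 4 or 6 arrays per group, and probe depth is not given.

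The intensities were log2 transformed and quantile normalized over the 20 arrays. Group means were estimated probe by probe with limma (version 3.58.1, R version 4.3.3) from 16 residual and 6.64 prior degrees of freedom, with Benjamini-Hochberg adjustment over all probes of a comparison. Passing means an adjusted p under 0.05, and folds over 1.5 were counted apart, as in the methods of the study. The fit was tested on simulated data. Symbols were matched by gene identifier for 34807 probes, of 34885 that name 1 gene, and 0 symbols changed. 18 probes name several genes and 10378 none. Ratios of probes were tested with exact permutations, adjusted over 8 tests. All members are named, together with the up to 4 passing genes of each list and comparison with the largest change and the 3 probes most like 5 of the members, by Pearson correlation over 20 arrays. The members and lists were chosen with earlier results of these data known. Alternatives changed the normalization (none, or the array median subtracted), added 16 before the log, fitted only the groups compared, left out dim probes, used an intensity trend, array weights or a replicate block, averaged the probes of a gene and left out each array. After the values were seen, alternatives were added that leave out 3 arrays with skeletal or atrial signal together and that use the second *Atp2a2* probe. Promoter sequences are from RefSeq, GRCm38.p6, and figures were drawn with matplotlib 3.10.9.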

Additional observations from a re-analysis of the deposited data

Results flagged for a closer look

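An array that stood apart from the rest of its group, by the gap to its nearest neighbour relative to the range of the group, was found in 8 of 96 sets of values, where chance gives about 1 in 20, or 4.8. *Atp2a1* was at 1890 on sham CTL replicate 2, against 77.4 on the next array, and at 771 on TAC DKO replicate 2, against 319 on the next. On sham CTL replicate 4 the third *Atp2a2* probe was lowest at 869, *Atp2a3* was highest at 331 and a dim *Ryr2* probe was lowest at 47.6. A dim *Slc8a1* probe was lowest on sham CTL replicate 2 at 48.2. On sham DKO replicate 4 the second *Atp2a3* probe was highest at 111, and the *Atp2a2* to *Pln* log2 ratio was lowest at 1.70. The skeletal muscle and atrial markers of the *Atp2a1* arrays are given with that gene, and the others were not followed up.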

How the results depend on the processing

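The falls of *Pln*, *Ryr2* and the second *Atp2a2* probe after TAC kept their direction and passed under all alternatives that test single probes. With the probes of a gene averaged, *Pln* passed, while *Ryr2* was -0.18 in DKO (adjusted p = 0.0376) and -0.12 in CTL hearts (adjusted p = 0.192) and *Atp2a2* -0.21 (adjusted p = 0.00762) and -0.13 (adjusted p = 0.125). With the array median subtracted, 1 member gene was higher and 5 were lower after TAC in DKO hearts and 0 were higher and 5 lower in CTL hearts, against 2 and 3 in each genotype in the analysis reported. Without a second normalization 6 were higher in each genotype. Of all genes by their brightest probes, 28.5% in DKO and 28.9% in CTL hearts were lower with the median subtracted. Without a second normalization 61.3% and 59.3% were higher. A member gene counts here by any of its probes, so these counts describe the members only. With a fold over 1.5 also asked, 1 member gene was higher in DKO and 0 in CTL hearts, against 2.46% and 1.76% of all probes. With the probes of a gene averaged, 1 member gene was higher in DKO and 1 lower in CTL hearts. Omitting 1 array gave 1 to 3 genes higher in DKO hearts, with 1 without sham DKO replicates 1 or 4 or TAC DKO replicates 1, 3 or 4, and 1 to 4 higher in CTL hearts, with 4 without sham CTL replicate 1 and 1 without replicate 2. For genotype, omitting 1 array gave 0 to 1 genes higher in TAC and 0 to 1 in sham hearts, the 1 being *Atp2a1* without sham CTL replicate 2. The TAC groups alone gave 1, and leaving out the 3 skeletal and atrial arrays gave 1 in TAC and 1 in sham hearts, and 1 higher after TAC in CTL hearts. Omitting the 3 arrays left the ratio differences at 1.65 in DKO and 1.54 in CTL hearts (*Atp2a2* to *Pln*) and 0.48 and 0.38 (*Slc8a1* to *Atp2a2*), none of which passed, with fewer arrays to permute. On the deposited scale, with or without the median, the *Slc8a1* to *Atp2a2* differences were 0.19 in DKO and 0.13 in CTL hearts. For sham DKO against sham CTL it no longer passed at 0.18 on the deposited scale, by limma (0.18), with all probes averaged (0.041) or with the second probe (0.19). Without the 3 arrays (0.18) and in the omissions (0.14 to 0.22) it could not pass, since too few sham arrays were left for an exact p under 0.05. For TAC DKO against TAC CTL it was 0.13 to 0.29 in the omissions and passed by limma (0.24) and without TAC DKO replicate 2 (0.29).

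Directions turned for dim probes without the second normalization, to 0.30 for *Atp2a2* in DKO, 0.24 and 0.33 for *Atp2a3*, 0.25 and 0.33 for *Casq1*, 0.26 and 0.33 for *Ryr2*, 0.13 and 0.15 for its lower dim probe, 0.29 for *Slc8a1* in DKO, and 0.33 and 0.30 for *Trdn* in DKO and CTL hearts. With the median subtracted they turned to -0.051 and -0.065 for the second *Atp2a3* probe, -0.28 and -0.31 for *Casq2* and -0.21 and -0.21 for *Slc8a1*. The cause was not tested. Over all probes, TAC in DKO hearts gave 31209 higher without and 3724 with the median subtracted, against 6964, and 10073 lower with the median subtracted, against 5729. TAC in CTL hearts gave 31040 and 2476 higher, against 5308, and 9684 lower, against 4636. The deposited scale, with or without the median subtracted, gave 18 lower for genotype after TAC, against 28, and 71 or 72 higher and 19 lower in sham hearts, against 45 and 9. For genotype after TAC the lower probes were 90 with array weights, 17 with an intensity trend, 15 with the TAC groups alone, 10 without the 3 arrays and 7 with a fold over 1.5, where 58 were higher, against 115. Whether the replicate numbers pair arrays is not given. Deviations of arrays of the same number correlated at 0.01 to 0.22 in sham hearts (2 of 4 pairs over 0.1) and at -0.19 to 0.38 after TAC (4 of 6 pairs). Those of different numbers correlated at -0.26 to 0.05 in sham hearts and at -0.47 to 0.31 after TAC. The replicate block changed no member count. It gave 210 probes higher and 141 lower for genotype after TAC, against 115 and 28, and 21 lower in sham hearts. With it the *Slc8a1* to *Atp2a2* difference of 0.18 in sham hearts could not pass, since 4 pairs allow no exact p under 0.05. Dim probes are limited by their signal, at or near the array median.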
